A study of Homo sapiens with 6 samples.

Results

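The genes described here are 38 listed genes of glycolysis and of the transcriptional response to low oxygen, out of 26966 named genes in the deposited table. The genes were listed by name for their place in these pathways, with earlier results of these data known, and all 38 were found under their current symbols. For each gene the values of all its RefSeq transcripts, 147 transcripts in all, were added up. Of the 38 genes, 36 reached a mean of 10 normalized counts, read counts scaled to a common library size, over the 6 libraries and were tested, and the glucose transporter SLC2A3 and the carbonic anhydrase CA9 did not reach it. The genes were grouped by role into 12 classes, from glucose uptake through the glycolytic enzymes to the hypoxia-inducible factors, their regulators and their targets.

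The data are RNA-seq of UWB1.289, an established human cell line from an ovarian carcinoma, known to lack functional BRCA1. One group, shHBO1, had 3 libraries of cells transduced with a lentiviral hairpin against HBO1, and the control group, shCTRL, had 3 libraries of cells transduced with a lentiviral control hairpin. KAT7, or MYST2, is the gene of HBO1, an enzyme that acetylates histones, and the comparison asks how its loss changes gene expression in these cells. Both groups were transduced with polybrene at 10 µg/mL and selected, starting after 96 h, with puromycin at 1 to 3 µg/mL, so the agents of transduction and selection were shared. Per the labels, cells were kept in DMEM/F-12, and no oxygen level, glucose level or low-oxygen treatment is named. The number of hairpins used is not stated, and effects of a hairpin other than loss of HBO1 cannot be told apart from it. Each group has libraries with the replicate numbers 1, 2 and 3. The labels do not tell whether these are separate cultures, so the p-values reflect the spread of these particular libraries, and that spread may be technical.

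Glycolysis splits glucose into pyruvate in the cytosol and yields ATP and NADH, and lactate dehydrogenase regenerates NAD+ by turning pyruvate into lactate. Many tumour cells run this pathway at a high rate even when oxygen is present. Hypoxia-inducible factors are pairs of an oxygen-labile alpha subunit and the stable subunit ARNT: in the presence of oxygen, prolyl hydroxylases mark the alpha subunit for degradation by the VHL ubiquitin ligase, and in its absence the pair binds DNA and switches on genes for glucose uptake, glycolysis, vessel growth and mitophagy. The regulation of the alpha subunit is mainly at the protein level, which RNA-seq does not measure. Several target genes, among them those for the prolyl hydroxylases, feed back on the pathway.

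The short DNA core that hypoxia-inducible factors are known to bind, ACGTG or GCGTG, was looked for on both strands of the RefSeq promoter windows of GRCh38.p14, which run from 250 bases before to 50 bases after each annotated start. Windows were found for 34 of the 38 genes, 61 windows in all because some genes have several starts, and not for BNIP3L, NDRG1, SLC2A3 and VEGFA. At least 1 core was present in 41 of the 61 windows (67.2%), against 59.7% of the windows of all tested genes and 48.4% of all windows. The form ACGTG alone was present in 25 of the 61 windows (41.0%), against 25.0% for all tested genes and 21.4% for all windows. The E-box CACGTG, which contains ACGTG on each strand and is counted as 2 cores, was present in 9 of the 61 windows (14.8%), against 9.16% for all tested genes and 7.26% for all windows. Counted by gene, 31 of the 34 (91.2%) had at least 1 core in some window, against 69.1% of all tested genes with a window. For ACGTG alone the shares of genes were 61.8% and 31.7%. A gene with several windows has more chances of a match. Windows of 1 gene can overlap, and a match is a string of letters, not evidence of binding. The 250 bases upstream of the start are shown for 5 genes, from RefSeq, in lower case with every core on either strand in capitals. ANGPTL4, EGLN3 and BHLHE40 are shown because they differed most between replicate numbers among the genes called for it, and PGK1 and LDHA as genes of glycolytic enzymes that are known targets of the factor; of a gene's several windows the one with the most cores is shown. The windows are chr19:8363905-8364154 (plus strand) for ANGPTL4, chr14:33951075-33951324 (minus strand) for EGLN3, chr3:4979187-4979436 (plus strand) for BHLHE40, chrX:78103998-78104247 (plus strand) for PGK1 and chr11:18394313-18394562 (plus strand) for LDHA.
ANGPTL4: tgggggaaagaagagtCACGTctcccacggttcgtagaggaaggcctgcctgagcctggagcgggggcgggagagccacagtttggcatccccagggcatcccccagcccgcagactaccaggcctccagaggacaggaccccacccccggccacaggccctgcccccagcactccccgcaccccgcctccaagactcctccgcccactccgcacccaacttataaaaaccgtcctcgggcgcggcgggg
EGLN3: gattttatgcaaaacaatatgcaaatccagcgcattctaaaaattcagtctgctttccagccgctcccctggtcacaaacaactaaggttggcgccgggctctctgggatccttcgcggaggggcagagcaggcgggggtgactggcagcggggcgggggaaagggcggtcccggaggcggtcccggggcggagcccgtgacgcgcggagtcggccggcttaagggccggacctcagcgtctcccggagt
BHLHE40: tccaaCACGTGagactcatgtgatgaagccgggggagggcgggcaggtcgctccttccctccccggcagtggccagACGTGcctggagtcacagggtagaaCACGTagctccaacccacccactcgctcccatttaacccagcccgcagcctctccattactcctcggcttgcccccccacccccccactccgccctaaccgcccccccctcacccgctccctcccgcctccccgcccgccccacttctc
PGK1: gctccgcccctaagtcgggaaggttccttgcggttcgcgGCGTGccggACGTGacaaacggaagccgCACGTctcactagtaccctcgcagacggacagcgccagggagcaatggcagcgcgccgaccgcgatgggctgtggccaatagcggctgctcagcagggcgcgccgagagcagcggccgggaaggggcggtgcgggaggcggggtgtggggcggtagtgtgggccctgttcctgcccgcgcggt
LDHA: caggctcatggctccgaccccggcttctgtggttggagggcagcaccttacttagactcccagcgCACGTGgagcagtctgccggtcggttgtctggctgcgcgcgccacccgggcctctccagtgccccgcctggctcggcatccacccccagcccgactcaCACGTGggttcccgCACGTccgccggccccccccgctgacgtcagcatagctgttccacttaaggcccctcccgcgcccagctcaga
The letters of ANGPTL4 hold 1 core, those of BHLHE40 hold 4, those of PGK1 hold 3 and those of LDHA hold 5, counting both strands of each CACGTG. The window of EGLN3 holds 0, which says only that these letters are absent from it.

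KAT7, the target of the hairpin, was at 1008, 872 and 784 normalized counts in shHBO1 libraries 1, 2 and 3, against 3616, 3952 and 3554 in shCTRL libraries 1, 2 and 3, so its mean was at 23.9% of the control. Its log2 fold change was −2.07 (SE 0.108, limma adjusted p = 0.00123), and the exact two-sided permutation test gave p = 0.1, the lowest value possible for 3 against 3 libraries. The libraries held 35940400 to 39908703 reads. Of the markers of epithelial carcinoma cells, all 7 were present, with summed levels of 221678 to 279474 normalized counts in shHBO1 and 231985 to 279303 in shCTRL. The 9 markers of leukocytes, endothelium, fibroblasts, smooth muscle and mesothelium summed to 1203 to 1543 in shHBO1 and 905 to 1430 in shCTRL. Of them, DCN was at 0 in every library, whereas COL1A1 lay at 502 to 895 and COL1A2 at 163 to 397 over the 6 libraries. In bulk RNA, a lower level in every cell and fewer cells that express a gene cannot be told apart.

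With HBO1 knocked down, the message levels of the glycolytic enzymes lay near their controls by estimate, and those of the hypoxia targets varied more from library to library. None of the 36 tested genes passed an adjusted p of 0.05 in the comparison of shHBO1 with shCTRL, by limma on log2(normalized count + 1) with Benjamini-Hochberg adjustment over 15173 genes. Over all those genes the test called 1 (0.00659%), KAT7 itself, so a count of 0 is near the background. At an unadjusted p under 0.05 the limma test had 1 of the 36 genes, PFKL, and 538 of all genes (3.55%). With the replicate number as a block, limma again called 0 of the 36, where 19 of all genes (0.125%) passed, and 8 of the 36 were at an unadjusted p under 0.05, 2 of them higher in shHBO1 and 6 lower, where 1716 of all genes (11.3%) were. On the recovered reads, edgeR called 0 of the 36 without the block and 0 with it, where 0.00659% and 0.125% of all genes passed. DESeq2 called 0 without the block, where 0.145% of 13111 genes passed. That fit gave no adjusted p for ANGPTL4 and CA12, so it did not assess them. With the block DESeq2 called 2, EGLN3 lower and ANGPTL4 higher in shHBO1, where 1.03% of 14290 genes passed.

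The estimates lay on both sides of 0, with 22 of the 36 above and 14 below. Their median log2 fold change was 0.019, beside 0.00013 for all tested genes. Taken within the replicate numbers, the median was 0.024 for number 1, 0.068 for number 2 and −0.081 for number 3. In 2 of the 36 genes the 3 shHBO1 values did not overlap the 3 shCTRL values: EPAS1 lay higher and PGAM1 lower. Such separation was found in 8.93% of all tested genes. In 12 of the 36 genes the difference had the same sign in all 3 numbers, 5 higher and 7 lower in shHBO1, where 32.4% of all tested genes did so, a share near that of the list.

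**Figure D1:**
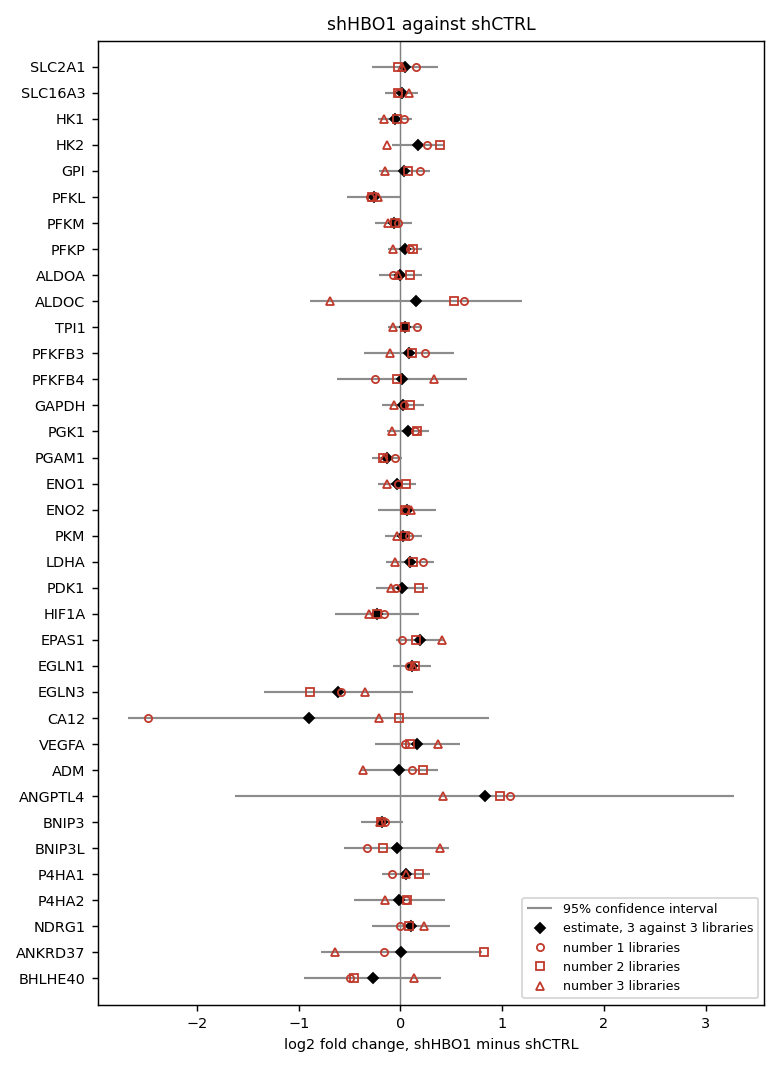
Log2 fold change of shHBO1 over shCTRL for the 36 tested genes, on the log2(normalized count + 1) scale. Diamonds are estimates from 3 against 3 libraries with 95% confidence intervals, and open symbols are the differences within replicate numbers 1, 2 and 3. The intervals are from the fit without the block; every one except that of PFKL spans 0, and CA12 and ANGPTL4 have the widest ones.

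SLC2A1, the GLUT1 transporter, takes up glucose, and SLC16A3, the MCT4 exporter, lets lactate leave. They are not the only such transporters expressed here. Over the 6 libraries SLC16A1 had a mean of 5358 normalized counts beside 3788 for SLC16A3, and SLC2A6 had 2841 beside 2786 for SLC2A1. SLC2A1 was at 2876, 3185 and 2425 normalized counts in shHBO1 libraries 1, 2 and 3, against 2589.9, 3243 and 2398 in shCTRL libraries 1, 2 and 3. The groups overlapped, with the number 2 library highest and the number 3 library lowest in each, and the log2 fold change was 0.047 (95% confidence interval −0.28 to 0.37). SLC16A3 lay at 3755 to 3849 in shHBO1, against 3535 to 3920.4 in shCTRL, with a log2 fold change of 0.011. SLC2A3, the high-affinity transporter GLUT3, was at 0, 0 and 4.82 in shHBO1, against 2.03, 3.75 and 1.05 in shCTRL, which is too low to compare. Per kilobase of transcript, SLC16A3 stood at 1882 ± 23.3 normalized counts and SLC2A1 at 771 ± 104 in shHBO1 (SD, n = 3), against 1869 ± 104 and 748 ± 121 in shCTRL. These levels per kilobase use transcript lengths of GENCODE release 29 and are approximate, since it is unknown how reads matching several transcripts were counted.

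The upper part of glycolysis traps glucose as glucose 6-phosphate and splits it into triose phosphates. PFKL, the liver-type subunit of phosphofructokinase, which makes fructose 1,6-bisphosphate, had the smallest unadjusted p of this class. It was at 2493, 2271 and 2064 in shHBO1, against 3064, 2751 and 2402 in shCTRL, and shHBO1 was lower within each replicate number, although the groups overlapped. The log2 fold change was −0.26 (SE 0.113, limma adjusted p = 1.00), and with the block the limma adjusted p was 0.176. In the fit without the block, its 95% confidence interval of −0.53 to −0.0026 was the only one of the list to leave out 0. With the block 8 intervals left out 0, among them those of PFKL, PGAM1, EGLN3 and ANGPTL4. The others were HIF1A (−0.37 to −0.10), BNIP3 (−0.32 to −0.044), EPAS1 (0.0057 to 0.38) and BHLHE40 (−0.55 to −0.0021). None of the 8 passed the adjusted p of 0.05 in limma. The muscle-type PFKM had a log2 fold change of −0.068 and the platelet-type PFKP one of 0.045. Their confidence intervals without the block were −0.25 to 0.12 and −0.12 to 0.21. Per kilobase, PFKP was the most abundant subunit at 1851 ± 25.0, with PFKM at 877 ± 59.1 and PFKL at 782 ± 73.7 in shHBO1 (SD, n = 3), against 1796 ± 113, 919 ± 40.6 and 941 ± 114 in shCTRL. PFKM and PFKL overlapped in level in each group, and PFKP lay above both in every library.

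HK1, the widely expressed mitochondrial hexokinase, lay at 5206 to 5361 normalized counts in shHBO1, against 5225 to 5958 in shCTRL. HK2, the hexokinase that hypoxia-inducible factor is known to induce, was at 1439, 1522 and 1299 in shHBO1, against 1198, 1163 and 1424 in shCTRL. Its groups overlapped, number 3 going the other way from numbers 1 and 2, and its log2 fold change was 0.17 (95% confidence interval −0.080 to 0.43). Per kilobase HK1 exceeded HK2 in every library, at 1472 ± 21.9 against 246 ± 19.6 in shHBO1 and 1530.5 ± 111 against 219 ± 24.5 in shCTRL (SD, n = 3). The deposited HK1 transcripts varied far more than their sum: NM_000188 was at 4999, 3351 and 3280.0 in shHBO1, against 3388, 2751 and 5056 in shCTRL, and NM_001322366 at 51.4, 1282 and 1672, against 1515, 1769 and 643. Where one of these transcripts was high the other was low, so only the sum is used here.

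Glucose phosphate isomerase GPI, aldolase A (ALDOA) and triose phosphate isomerase TPI1 each had a log2 fold change between −0.0001 and 0.044. ALDOA lay at 47136 to 57123 in shHBO1, against 47929 to 53521 in shCTRL, and TPI1 at 23474 to 24664, against 21561 to 24658. ALDOC, the brain-type aldolase, was scarcely detected at 17.8, 15.3 and 6.75 in shHBO1, against 11.2, 10.3 and 11.5 in shCTRL. Per kilobase, ALDOA was at 32641 ± 3263 and ALDOC at 6.69 ± 2.91 in shHBO1 (SD, n = 3), so nearly all aldolase message was the A form.

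PFKFB3 and PFKFB4 make and break fructose 2,6-bisphosphate, the strongest activator of phosphofructokinase. PFKFB3 was at 931, 864 and 1141 in shHBO1 libraries 1, 2 and 3, against 787, 796 and 1228 in shCTRL. The number 3 library was highest in each group, and the log2 fold change between the hairpins was 0.084 (95% confidence interval −0.36 to 0.53). PFKFB4 was at 321, 331 and 237 in shHBO1, against 384, 339 and 189 in shCTRL, with the number 3 library lowest in each group. Its log2 fold change between the hairpins was 0.013 (95% confidence interval −0.63 to 0.65). The pair thus differed between replicate numbers in opposite directions.

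The lower part of glycolysis turns triose phosphates into pyruvate and lactate, and per kilobase it held the most abundant messages of the list, GAPDH, ENO1 and PKM. PGAM1, phosphoglycerate mutase, was at 17166, 16623 and 15981 in shHBO1, against 17810.5, 18699.6 and 17928 in shCTRL. Every shHBO1 value lay under every shCTRL value, and the log2 fold change was −0.13 (SE 0.0637, limma adjusted p = 1.00, 95% confidence interval −0.28 to 0.018). GAPDH, often used as a reference gene, lay at 134053 to 158180.0 in shHBO1, against 139876 to 147938 in shCTRL, a log2 fold change of 0.024 (95% confidence interval −0.18 to 0.23). Enolase ENO1 lay at 112613 to 129734, against 123467 to 125375, and its neuronal form ENO2 at 775 to 943, against 722 to 914. Per kilobase ENO1 was at 52069 ± 3699.9 and ENO2 at 358 ± 35.1 in shHBO1, against 53250.2 ± 462 and 343 ± 40.7 in shCTRL (SD, n = 3).

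PGK1, which makes ATP from 1,3-bisphosphoglycerate, was at 10426, 11836 and 9899.8 in shHBO1, against 9415, 10576 and 10502 in shCTRL, and LDHA, the lactate dehydrogenase chain favoured in glycolytic tissue, at 26049, 29676 and 24691, against 22376, 27255 and 25568. Both overlapped between groups, with log2 fold changes of 0.075 and 0.10 and confidence intervals of −0.13 to 0.28 and −0.14 to 0.33. Pyruvate kinase PKM lay at 106098 to 113049 in shHBO1, against 100050.0 to 111098 in shCTRL. Most of it was NM_002654, the M2 isoform found in proliferating cells, which held 93.7% ± 0.478 of PKM in shHBO1, against 94.4% ± 1.16 in shCTRL (SD, n = 3). The M1 transcripts NM_182471 and NM_182470 held 0.153% ± 0.0575 and 0.0810% ± 0.0310 in shHBO1, against 0.0986% ± 0.0242 and 0.0411% ± 0.00771 in shCTRL. Genes such as GAPDH, ENO1, PGAM1, TPI1, PGK1 and LDHA have near-identical pseudogenes or retrocopies, so reads could be split between copies and their levels are uncertain.

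Leaving aside the scarce ALDOC, the 15 glycolytic enzymes from hexokinase to lactate dehydrogenase had estimates between −0.26 and 0.17, and 0 of them passed. Their 95% confidence intervals ended at −0.53 on the lower side, for PFKL, and 0.43 on the upper side, for HK2. Larger changes than these therefore lay outside the intervals of the fit without the block. With the block, the interval ran from −0.40 to −0.13 for PFKL and from −0.26 to −0.00039 for PGAM1. PDK1, the kinase that keeps pyruvate out of the mitochondrion by inactivating pyruvate dehydrogenase, was at 589, 690.4 and 639.8 in shHBO1, against 605, 609 and 685 in shCTRL. Its groups overlapped and its log2 fold change was 0.014 (95% confidence interval −0.24 to 0.27).

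**Figure D2:**
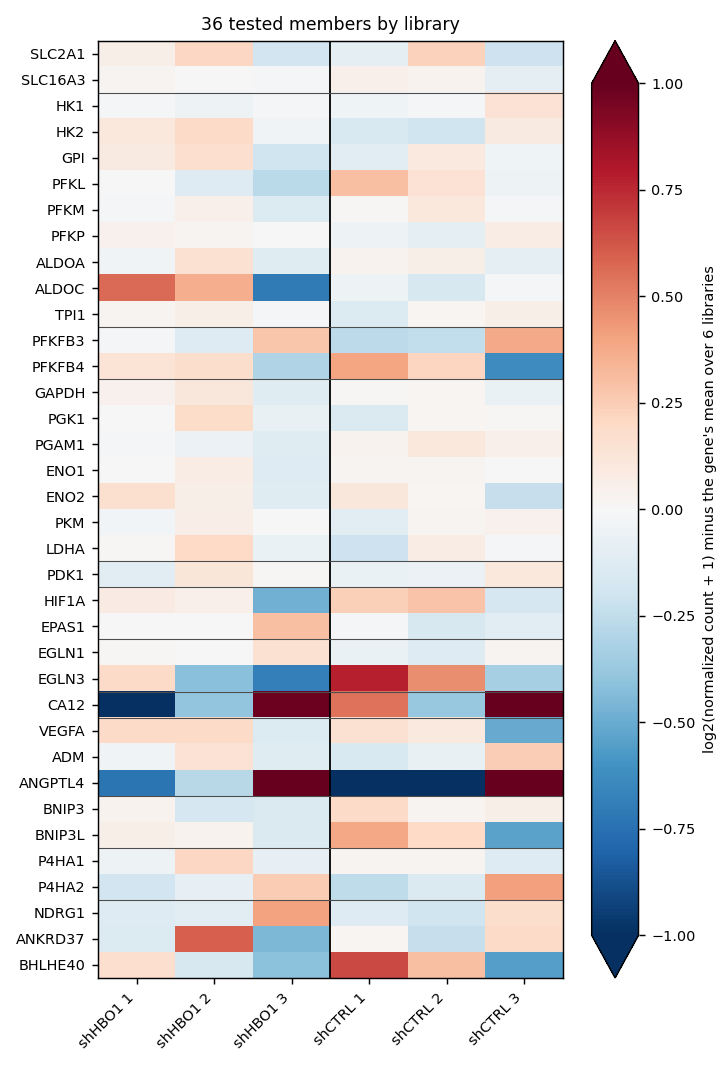
The 36 tested genes (rows, ordered by role and separated by lines) in the 3 shHBO1 and 3 shCTRL libraries (columns). Colour is log2(normalized count + 1) minus the gene's mean over the 6 libraries, limited to 1 in each direction; the enzyme rows from HK1 to TPI1 and from GAPDH to LDHA are pale apart from ALDOC, and strong colours lie in the number 3 columns and in EGLN3, CA12, ANGPTL4 and BHLHE40.

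The oxygen-labile subunits of hypoxia-inducible factor were both expressed. HIF1A was at 4628, 4544 and 3135 in shHBO1 libraries 1, 2 and 3, against 5169.7, 5323 and 3889.6 in shCTRL. shHBO1 was lower within each number, by 0.16, 0.23 and 0.31 on the log2 scale, and the number 3 library was lowest in each group, so that the groups overlapped. The log2 fold change was −0.23 (limma adjusted p = 1.00, SE 0.178, 95% confidence interval −0.65 to 0.18; with the block, SE 0.0573 and adjusted p = 0.218), and without shHBO1 library 3 it was −0.050. EPAS1, the second alpha subunit, also called HIF-2 alpha, was at 3181, 3174 and 3927 in shHBO1, against 3155, 2862 and 2951 in shCTRL. All 3 shHBO1 values lay above all 3 shCTRL values, the lowest shHBO1 value by a small margin. Its log2 fold change was 0.19 (SE 0.101, limma adjusted p = 1.00, 95% confidence interval −0.043 to 0.42), and without shHBO1 library 3 it was 0.089. Per kilobase HIF1A was at 1050.4 ± 215 and EPAS1 at 663 ± 83.7 in shHBO1, against 1228 ± 202 and 579 ± 29.03 in shCTRL (SD, n = 3), and HIF1A lay above EPAS1 in every library. Antisense RNAs are annotated at HIF1A and at EGLN3 in GENCODE release 29, and strandedness is not given, so reads of the sense and antisense genes cannot be told apart.

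The prolyl hydroxylases EGLN1 and EGLN3 mark the alpha subunits for degradation, and EGLN3 is itself a known target of the factor. EGLN3 was at 594, 389 and 323 in shHBO1, against 895, 720.2 and 413 in shCTRL. It was lower in shHBO1 within each number, and in each group the number 1 library was highest and the number 3 library lowest, so that the groups overlapped. The log2 fold change was −0.61 (limma adjusted p = 1.00, SE 0.317, 95% confidence interval −1.34 to 0.12), and without shCTRL library 1 it was −0.37. With the replicate number as a block the SE was 0.116 and the limma adjusted p = 0.123, and DESeq2 with the block called it lower (log2 fold change −0.61, adjusted p = 0.00932). EGLN1, the main oxygen sensor of most cells, lay at 2242 to 2479 in shHBO1, against 2037 to 2270.4 in shCTRL. It was higher in shHBO1 within each number, with a log2 fold change of 0.12 (95% confidence interval −0.072 to 0.30) that did not pass.

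**Figure D3:**
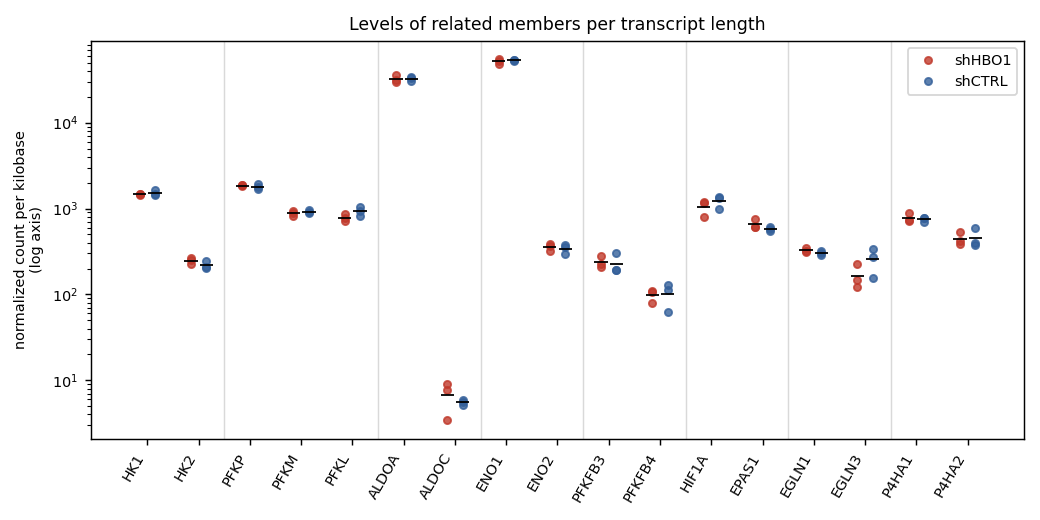
Normalized count per kilobase of transcript (log axis) for related genes of the list, with 1 point per library, the 3 shHBO1 libraries left of the 3 shCTRL libraries, and bars at the means. ENO1 and ALDOA stand orders of magnitude above ENO2 and ALDOC, HK1 above HK2, PFKP above PFKM and PFKL, and HIF1A above EPAS1, with the 2 hairpin groups side by side.

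The carbonic anhydrases keep the pH of glycolytic cells by hydrating carbon dioxide at the cell surface, and CA9 is among the most used markers of hypoxia. CA9 was close to the detection limit, at 6.54, 4.07 and 5.79 in shHBO1, against 1.02, 2.81 and 6.29 in shCTRL. CA12 was at 2.80, 10.2 and 27.98 in shHBO1, against 20.3, 10.3 and 32.5 in shCTRL. The lowest value and 1 of the 2 highest were both in shHBO1, and the log2 fold change of −0.90 had a 95% confidence interval of −2.68 to 0.87, too wide to read a direction.

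Of the secreted factors, ANGPTL4, an inhibitor of lipoprotein lipase that is induced by hypoxia, by fasting and by lipid-sensing receptors, had the widest range on the log2 scale of all genes of the list. It was at 153, 209.8 and 1218 in shHBO1 libraries 1, 2 and 3, against 72.1, 106 and 908 in shCTRL libraries 1, 2 and 3. The number 3 library stood far above the other two in each group, and within each number shHBO1 was the higher, by 1.08, 0.98 and 0.42 on the log2 scale. The log2 fold change was 0.83 (limma adjusted p = 1.00, SE 1.06, 95% confidence interval −1.63 to 3.28), and without shHBO1 library 3 it was −0.092. With the block the SE was 0.152 and the limma adjusted p = 0.110, and DESeq2 with the block called it higher (log2 fold change 0.79, adjusted p = 0.00466). VEGFA, the vessel growth factor, was at 3671, 3684 and 2931 in shHBO1, against 3568, 3450.2 and 2275 in shCTRL, lowest in the number 3 library of each group. Its log2 fold change was 0.17 (95% confidence interval −0.25 to 0.59), and −0.041 without shCTRL library 3. Of its 20 deposited transcripts, 10 repeated the values of another, so its sum may count some reads more than once. ADM, the vasodilator adrenomedullin, lay at 192 to 231 in shHBO1, against 188 to 249 in shCTRL.

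BNIP3 and BNIP3L mark mitochondria for removal by autophagy. BNIP3 was at 1924, 1676 and 1702 in shHBO1, against 2143, 1912 and 1958 in shCTRL. It was lower in shHBO1 within each number, and the groups overlapped only through the number 1 library of shHBO1. The log2 fold change was −0.18 (SE 0.0891, limma adjusted p = 1.00, 95% confidence interval −0.39 to 0.024; with the block, adjusted p = 0.316). BNIP3L lay at 892 to 1026 in shHBO1, against 681 to 1293 in shCTRL, with a log2 fold change of −0.038 (95% confidence interval −0.55 to 0.48).

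The collagen prolyl hydroxylase subunits P4HA1 and P4HA2 modify collagen in the secretory pathway. P4HA1 was at 2106, 2520.3 and 2061 in shHBO1, against 2226, 2219 and 1989 in shCTRL, and P4HA2 at 889.6, 962 and 1214, against 854, 919 and 1354. Both overlapped between the hairpins, with log2 fold changes of 0.052 and −0.011, and P4HA2 was highest in the number 3 library of each group. NDRG1, a stress-induced gene whose message accumulates in hypoxia, was at 1834, 1854 and 2661 in shHBO1, against 1837, 1747 and 2270.4 in shCTRL. Its number 3 libraries were likewise the highest, and its log2 fold change between hairpins was 0.10 (95% confidence interval −0.28 to 0.49). BHLHE40, a repressor of the clock and of differentiation genes, also called DEC1, was at 2400.5, 1912 and 1609 in shHBO1, against 3392, 2634 and 1464 in shCTRL. The number 3 library was lowest in each group, shHBO1 was lower in numbers 1 and 2 and higher in number 3, and the log2 fold change was −0.27 (95% confidence interval −0.95 to 0.40). Without shCTRL library 1 it was −0.012, and without shCTRL library 3 it was −0.62. ANKRD37, a compact hypoxia target, lay at 23.2 to 48.9 in shHBO1, against 27.2 to 36.7 in shCTRL.

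The larger differences on the list ran between the replicate numbers, as they did over all tested genes. On the list the median size of number 3 minus number 1 was 0.13 (log2), beside 0.066 for the hairpin estimates. Over all tested genes these medians were 0.20 and 0.093. Number 3 minus number 1 rests on 2 against 2 libraries, the hairpin estimate on 3 against 3. For the 10 genes called for a difference between numbers, the direction was the same in both hairpin groups, but the size was not always alike. Number 3 minus number 1 was −1.21 in shCTRL and −0.58 in shHBO1 for BHLHE40, and −0.11 and −0.25 for SLC2A1, on the log2 scale. In the additive limma model, the F test of the 3 numbers called 10 of the 36 genes (27.8%), where it called 1469 of all 15173 tested genes (9.68%). Among genes with a mean of at least 50 it called 10 of 33, against 12.3% of all. The genes were higher in number 3 than in number 1 for ANGPTL4, P4HA2, PFKFB3 and NDRG1, and lower for EGLN3, BHLHE40, PFKFB4, HIF1A, VEGFA and SLC2A1. The fit had 2 residual degrees of freedom before moderation, and what the numbers stand for is not given. Cell marker levels also varied with the numbers: 6 of the 7 epithelial markers and 3 of the 9 others were lowest in the number 3 library of each group, and 0 were highest there in both. The epithelial sums were 256991, 279474 and 221678 in shHBO1 libraries 1, 2 and 3, against 279303, 273901 and 231985 in shCTRL, and the other sums 1543, 1377 and 1203, against 1430.0, 1288 and 905. CLDN4, an epithelial tight-junction gene, was at 7514 in the number 3 library of shHBO1 and 7109 in that of shCTRL, where the other libraries had 12218 to 16431. The part of such markers in the differences was not tested.

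ANGPTL4 had the largest difference, 3.31 on the log2 scale for number 3 minus number 1 (SE 0.186, limma adjusted p = 0.000318), and its number 3 value was 7.95 times the number 1 value in shHBO1 and 12.6 times in shCTRL. P4HA2, PFKFB3 and NDRG1 followed with differences of 0.56, 0.47 and 0.42, at limma adjusted p-values of 0.0224, 0.0353 and 0.0234. On the lower side, EGLN3 differed by −0.99 (SE 0.142, limma adjusted p = 0.0144), and its number 3 value was 0.544 times its number 1 value in shHBO1 and 0.462 times in shCTRL. BHLHE40 differed by −0.89 and PFKFB4 by −0.73, at limma adjusted p-values of 0.0211 and 0.0476. HIF1A differed by −0.49 (SE 0.0702, limma adjusted p = 0.00888), VEGFA by −0.49 (limma adjusted p = 0.0235) and SLC2A1 by −0.18 (limma adjusted p = 0.0324). For SLC2A1 the number 2 libraries stood apart as well, at 0.24 for number 2 minus number 1. In all 10 genes the sign of number 3 minus number 1 was the same in shHBO1 and in shCTRL, which the additive model favours.

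**Figure D4:**
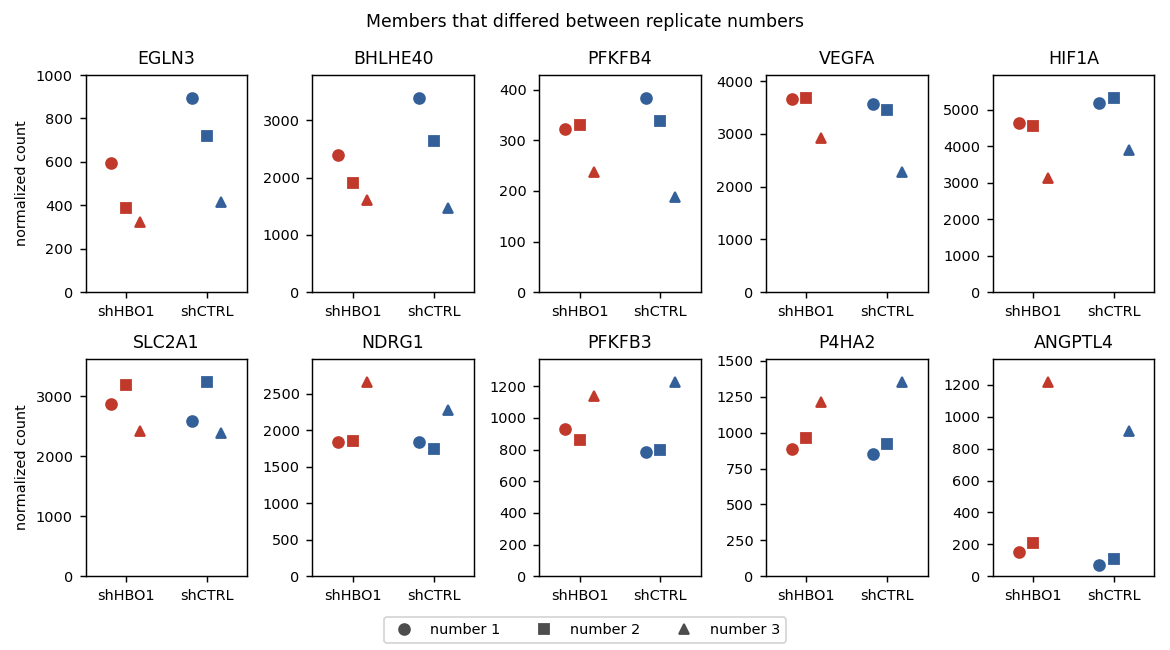
Normalized counts of the 10 genes that passed the test between replicate numbers, with 1 point per library, shHBO1 left of shCTRL in each panel and the marker giving the number. The number 3 libraries are the lowest of each group in EGLN3, BHLHE40, PFKFB4, VEGFA, HIF1A and SLC2A1 and the highest in NDRG1, PFKFB3, P4HA2 and ANGPTL4.

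The 10 genes were transporters, regulators and hypoxia targets, 10 of 20 tested, and 0 of the 16 listed glycolytic enzymes were among them. Of 21 further glycolytic isozymes, transporters and regulators tested, described below, 4 passed, among them the enolase ENO3 and the mutase BPGM. For number 3 minus number 1 they stood at −0.71 (limma adjusted p = 0.0134) and 0.43 (limma adjusted p = 0.0392). The median size of the difference between number 3 and number 1 was 0.44 (log2) in those 20 genes and 0.083 in the 16 enzymes, beside 0.20 over all tested genes. Known targets of the factor thus stood on both sides, with ANGPTL4, NDRG1 and P4HA2 higher and EGLN3, VEGFA and SLC2A1 lower in number 3. The median signed difference over the 36 genes was −0.074, beside 0.0031 over all tested genes.

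The F test was repeated with other settings. It called 9 of the genes with edgeR (9.62% of all genes), 11 with the DESeq2 likelihood ratio test (14.7%), 11 with quantile normalization (11.9%), the enzyme gene PFKL among them, 10 with a pseudocount of 5 (10.0%) and 9 with no filter on low genes (5.15%). It called 11 without shHBO1 library 1 (12.6%) and 9 without shCTRL library 1 (8.23%). Leaving out 1 library moved the count of 10 by more than 1.5 times in 4 cases. It was 4 without shHBO1 library 2 (3.64% of all genes) and 4 without shCTRL library 2 (3.12%), and these 4 were ANGPTL4, EGLN3, HIF1A and BHLHE40 both times. It was 18 without shHBO1 library 3 (38.8% of all genes) and 16 without shCTRL library 3 (20.2%), and then 7 and 6 of the 16 enzymes were among the genes called. ANGPTL4, EGLN3, HIF1A and BHLHE40 passed in each of these 4 fits. Each fit with a library left out has 1 residual degree of freedom before moderation, and the number left with 1 library adds nothing to it, so that library is assumed to vary like the others.

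**Figure D5:**
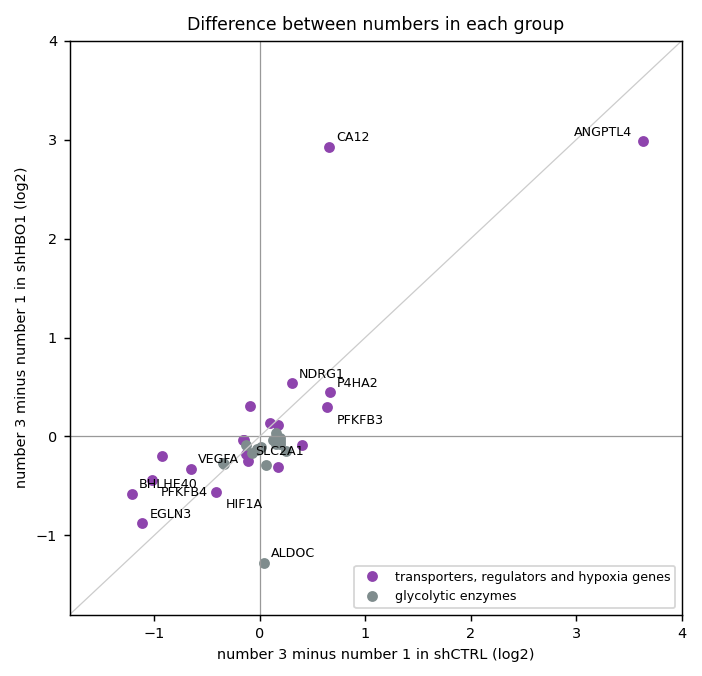
Number 3 minus number 1 on the log2(normalized count + 1) scale for the 36 tested genes, in shHBO1 (vertical axis) against shCTRL (horizontal axis), with the line of equal values. The 10 genes that passed, ALDOC and CA12 are named; ANGPTL4 stands at 2.98 in shHBO1 and 3.64 in shCTRL, and the enzymes (grey) lie near 0 apart from ALDOC.

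The wider pathway was described through 5 further lists of 102 genes. Limma, edgeR and DESeq2 called 0 of their tested genes for the hairpin without the block. With it, limma and edgeR called 0 and DESeq2 called 1. At an unadjusted limma p under 0.05 the lists held 1, 0, 0, 0 and 2 genes without the block, in the order in which they follow, and 4, 0, 2, 0 and 4 with it, where 3.55% and 11.3% of all tested genes were. Of 21 other glycolytic isozymes, transporters and regulators tested, the one at an unadjusted p under 0.05 was the hexokinase-like HKDC1, at 90.6, 102 and 94.6 in shHBO1, against 73.1, 68.4 and 56.6 in shCTRL (log2 fold change 0.53, limma adjusted p = 1.00). The transporter SLC2A10 had a log2 fold change of −0.35 and the bisphosphoglycerate mutase BPGM one of −0.31. Of the 11 genes that bring pyruvate into the citric acid cycle, the carrier MPC1 had the smallest p, at a log2 fold change of 0.10, followed by the dehydrogenase component PDHX at −0.073 and the citrate synthase CS at −0.049. In the pentose phosphate pathway, 9 genes tested, phosphogluconate dehydrogenase PGD, which forms NADPH, was lower in shHBO1 within each number, at a log2 fold change of −0.18 (with the block, limma adjusted p = 0.276), and the epimerase RPE stood at 0.12.

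Of 15 tested genes of oxygen sensing and of the factor's partners, the acetyltransferase coactivators EP300 and CREBBP had log2 fold changes of 0.18 and 0.18, and the prolyl hydroxylase EGLN2 0.059. Of 34 other hypoxia-inducible genes tested, the 3 with the smallest p were the transcription factor ZNF395, the collagen cross-linking enzyme LOX and the chemokine receptor CXCR4. ZNF395 was at 1842, 1734 and 1506 in shHBO1, against 2170.4, 2249 and 1837 in shCTRL, a log2 fold change of −0.30 (SE 0.112, limma adjusted p = 1.00). LOX was at 648, 665 and 702 in shHBO1, against 559.6, 605 and 493 in shCTRL, with every shHBO1 value above every shCTRL value and a log2 fold change of 0.28 (SE 0.112, limma adjusted p = 1.00). CXCR4 was at 71.9, 87.6 and 122 in shHBO1, against 60.9, 84.3 and 65.0 in shCTRL, with overlapping groups.

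Between replicate numbers, 9 of those 34 hypoxia-inducible genes passed (26.5%), 4 higher and 5 lower in number 3 than in number 1, against 9.68% of all genes. In the other lists 4 of 21 passed (19.0%) among the glycolytic isozymes, transporters and regulators, 2 of 11 among the genes of pyruvate entry, 1 of 9 in the pentose phosphate pathway and 1 of 15 among the oxygen-sensing genes.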

How the data were processed

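One table was used, in which the authors deposited a normalized signal per RefSeq transcript, 58215 transcripts in 6 libraries. The submitters' processing notes name Bowtie 1.2.1.1, SAMtools, DESeq2 and the build hg19 but give no role for any. Strandedness, read length and the rule for reads that match several transcripts are not given in the sources. Every value was a whole multiple of 1 step per library, so whole reads were recovered for 100% of values (tolerance 0.01 read), and the deposited signal is read here as counts divided by 1 factor per library. Names came from RefSeq of GRCh38.p14 (57191 transcripts) and GENCODE release 29 (646); 378 without a name, 0.0920 to 0.0977% of reads, were left out. Transcripts were summed per gene, so a read counted for several transcripts enters a sum more than once.

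The main test was limma-trend (limma 3.58.1, R 4.3.3) on log2(normalized count + 1) of 15173 genes, those whose mean over the 6 libraries was 10 or more, without a block, with Benjamini-Hochberg adjustment over all of them and a threshold of 0.05. Adding 1 shrinks the log2 difference between low values. An estimate on this scale can still exceed that of the other tools. CA12 was at −0.90, against −0.61 with edgeR and −0.62 with DESeq2, each without a block. The difference between replicate numbers was an F test in the model of hairpin group plus number. Alternatives were the number as a block, edgeR 4.0.16 (quasi-likelihood) and DESeq2 1.42.0 on the recovered reads, quantile normalization, a pseudocount of 5, a mean of at least 50, no filter, and leaving out libraries. A pair of alternatives was added after seeing the data: counting repeated transcripts once, and leaving out each library in the test between numbers. The code was tested on simulated data.

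Same-numbered libraries deviated together from their group means. The correlation across genes was 0.32, 0.19 and 0.48 for numbers 1, 2 and 3, each over the limit of 0.1. Unmatched pairs lay between −0.40 and 0.21. The highest, shHBO1 number 1 with shCTRL number 2, was also over the limit and above the matched pair of number 2. The limit thus did not separate matched from unmatched pairs. The differences within numbers and the fits with the block treat the numbers as pairs, whereas the main test of the hairpins does not. The labels name no shared culture or day. The genes and lists were chosen with earlier results of these data known. Values in every library are given for HIF1A, EPAS1, each gene past the threshold in any of the 3 limma tests and the gene of smallest unadjusted p in each role; for the further lists, the 3 genes of smallest p. A few genes that this rule or a test would name are left unnamed; the counts include them. HK2, PGK1, LDHA, the low genes SLC2A3, CA9 and ALDOC, and the transcripts of HK1 and PKM were shown in addition, chosen after their values were seen.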

Additional observations from a re-analysis of the deposited data

How the results depend on the processing

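The count of 0 genes called between the hairpin groups held with the replicate block in limma and edgeR, with quantile normalization, a pseudocount of 5, a mean of at least 50, no filter, each library left out, the number 3 libraries left out and repeated transcripts counted once; with DESeq2 and the replicate block it was 2. The genes' median log2 fold change stayed between −0.038 and 0.062 over all settings, and KAT7 between −2.16 and −1.98. The count of 10 between replicate numbers was 9 to 11 under the other tools, scalings and filters and 4 to 18 with 1 library left out. Of the 17 genes chosen by the rule, 9 estimates changed sign with 1 library left out, ANGPTL4 at 0.83 and VEGFA at 0.17 being the furthest from 0. PFKFB4, at 0.013, was −0.039 with edgeR, −0.0010 with edgeR and the replicate block, −0.036 with DESeq2 and −0.15 without the number 3 libraries, and P4HA2, at −0.011, was 0.063 without them. With 1 library left out, the log2 fold change ran from −0.30 to 0.21 for PFKFB4, −0.14 to 0.19 for P4HA2, −0.040 to 0.11 for P4HA1, −0.042 to 0.073 for PDK1, −0.044 to 0.17 for SLC2A1, −0.092 to 1.95 for ANGPTL4, −0.072 to 0.22 for NDRG1, −0.032 to 0.30 for PFKFB3 and −0.041 to 0.28 for VEGFA. A further 5 kept their sign but moved by over 1.5 times: BHLHE40, at −0.27, ran from −0.62 (without shCTRL library 3) to −0.012 (without shCTRL library 1), HIF1A from −0.38 (without shCTRL library 3) to −0.050 (without shHBO1 library 3), EGLN3 from −0.93 (without shCTRL library 3) to −0.37 (without shCTRL library 1), EPAS1 from 0.089 (without shHBO1 library 3) to 0.24 (without shHBO1 library 2) and CA12 from −1.62 (without shHBO1 library 3) to −0.16 (without shHBO1 library 1). The cause was not tested. Blocking changed no call of limma or edgeR between the hairpins on the tested genes of the list. Over all genes the calls went from 1 to 19 in each. With the block, the confidence interval of EGLN3 was −0.88 to −0.34 and that of ANGPTL4 0.48 to 1.18. ALDOC, CA12 and ANKRD37 averaged under 50 normalized counts, and the part of depth in their spread was not tested.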

Other observations

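Transcripts of a gene can shift against each other while their sum stays level, which the gene sums do not show. Of 83 deposited transcripts with a mean of at least 50, in 25 tested genes that have several, 10 had a share of their gene that did not overlap between shHBO1 and shCTRL, 4 higher and 6 lower in shHBO1, and in 5 of them the mean share differed by at least 5 percentage points. Over all 20139 such transcripts of tested genes, 9.24% did not overlap and 5.56% also differed by that much, so the counts are near the background and are no result about these genes. These 5 belonged to HIF1A, P4HA2 and PDK1 and were chosen after their values were seen. For HIF1A, NM_001530 held 83.2% ± 0.909 of the gene in shHBO1, against 90.8% ± 3.15 in shCTRL (SD, n = 3), and NM_001243084 held 12.2% ± 1.49, against 5.03% ± 4.501, with 1 shCTRL library at 0. For P4HA2, NM_001142599 held 12.9% ± 0.553 in shHBO1, against 20.9% ± 1.04 in shCTRL. For PDK1, NM_002610 held 43.8% ± 9.25 in shHBO1, against 59.6% ± 1.60 in shCTRL, and NM_001278549 held 37.9% ± 3.06, against 25.7% ± 5.49. No test was made of these shares, and how reads were assigned to transcripts is not given. The uneven split of HK1 between libraries of the same group shows that such shares can vary within a group as well.

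Genes of the further lists also differed between replicate numbers. DDIT4, an inhibitor of the mTOR pathway, was at 6772, 6389 and 4188 in shHBO1 libraries 1, 2 and 3, against 8545, 7351 and 2845 normalized counts in shCTRL, lowest in number 3 of each group (a log2 difference of −1.14 for number 3 minus number 1, limma adjusted p = 0.0158). CITED2, which competes with HIF1A for the coactivators EP300 and CREBBP, was at 1829, 1791 and 1141 in shHBO1, against 2279, 2298 and 869 in shCTRL, again lowest in number 3 (−1.03, limma adjusted p = 0.0137). SLC2A12, a glucose transporter, was at 1446, 1373 and 641 in shHBO1, against 1934, 2122 and 444 in shCTRL (−1.65, limma adjusted p = 0.00826). These 3 genes were picked with their values in view.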
